A study of Homo sapiens with 24 samples.

Results

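The nuclear genes of the subunits of mitochondrial complex I were followed through 4 groups of IMR90 cells, with 6 biological replicates per group. Members were the counted genes whose symbol begins with NDUFA, NDUFB, NDUFC, NDUFS or NDUFV followed by digits, together with NDUFAB1. Assembly factors (NDUFAF), pseudogenes and antisense RNAs were left out. The rule found 38 genes among 25702 counted identifiers, and all 38 were among the 13356 genes that passed the low-count filter. One of them, NDUFA4, was found by an older symbol (it is now listed as COXFA4), and its protein is now placed in complex IV.

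IMR90 cells are human diploid fibroblasts from lung. All samples carried ER:HRAS(G12V), a fusion of mutant HRAS with the oestrogen receptor that becomes active on addition of 4-hydroxytamoxifen (4OHT). Growing cells carried the MSCV Vector and received no agent. The shHMGA1 cells carried MSCV miR30 shHMGA1, a hairpin against the chromatin protein HMGA1, and received no agent either. Cells with RAS-induced senescence (RIS) carried the vector and had 4OHT for 6 days, and RIS+shHMGA1 cells carried the hairpin and had the same treatment.

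Complex I (NADH:ubiquinone oxidoreductase) is the entry point of electrons from NADH into the respiratory chain of the inner mitochondrial membrane. A hydrophilic arm in the matrix oxidises NADH and passes the electrons along iron-sulphur clusters to ubiquinone, and a membrane arm pumps protons. Conserved core subunits carry out the chemistry, and a larger number of accessory subunits surround them and are needed for assembly and stability. The core subunits of the membrane arm are encoded by mitochondrial DNA (MT-ND1 to MT-ND6 and MT-ND4L), and these 7 genes are not analysed here.

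Levels are CPM, the count of a gene as a share of its library scaled to a common total, on library sizes normalised by TMM, which keeps a few very abundant genes from setting the scale. They are shares of a library, so that more complex I RNA per cell and less of other RNA cannot be told apart. A gene was called higher or lower when its Benjamini-Hochberg adjusted p was under 0.01 and its log2 fold change exceeded 0.58 in size, in edgeR's quasi-likelihood test over all tested genes. Errors of log2 fold changes are standard errors (SE).

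Total counts ranged from 8698070 to 23103424 per sample, and the lowest count of any member in any sample was 151. HMGA1, the target of the hairpin, had 639 to 861 CPM in growing and 641 to 786 CPM in RIS samples, against 54.4 to 143 CPM in shHMGA1 and 60.0 to 262 CPM in RIS+shHMGA1 samples. Of the listed fibroblast markers, VIM was present at 3174 CPM or more in every sample. All of these markers had lower medians in RIS+shHMGA1 than in shHMGA1 samples. The medians were 3444 against 4481 CPM for VIM, 519 against 7869 CPM for COL1A1 and 26.6 against 963 CPM for COL3A1. The 5 epithelial markers summed to at most 1.68 CPM and the 4 endothelial markers to at most 2.65 CPM in a sample, and of the 4 leukocyte markers PTPRC stayed at or below 0.688 CPM and CD68 lay between 40.2 and 105 CPM. The libraries labelled growing replicate 4 and RIS replicate 2 stood apart from their groups. The proliferation gene MKI67 was at 3.73 CPM and the cytokine gene IL1A at 542 CPM in growing replicate 4, whereas the other growing samples had 87.6 to 152 CPM of MKI67 and 18.3 to 39.9 CPM of IL1A. In RIS replicate 2 the same genes were at 141 and 24.9 CPM, whereas the other RIS samples had 3.16 to 6.85 CPM of MKI67 and 407 to 553 CPM of IL1A. The MKI67 and IL1A levels in growing replicate 4 thus lay within the range of the other RIS samples. Those in RIS replicate 2 lay within the range of the other growing samples. Whether the labels of the 2 libraries were exchanged was not tested, and it bears on the growing and RIS values and on every comparison that uses these groups. The spread was estimated over all 24 samples, so the 2 libraries also bear on the calls in RIS+shHMGA1 against shHMGA1. Both libraries were kept in their labelled groups. Counts of called genes in these comparisons are given with and without them, and the growing and RIS levels of single genes include them unless stated.

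The summed level of the 38 genes was highest in RIS+shHMGA1 samples. It ranged from 4681 to 9125 CPM there, with a median of 7341 CPM. In RIS samples it ranged from 1962 to 4792 CPM with a median of 3810 CPM, and in shHMGA1 samples from 2766 to 4172 CPM with a median of 3224 CPM. The RIS+shHMGA1 group did not overlap shHMGA1, and it overlapped RIS in 1 pair of values, 4681 against 4792 CPM. Growing samples ranged from 1667 to 6719 CPM with a median of 2405 CPM. The highest growing value was that of replicate 4, and the others reached at most 3170 CPM. This value of 6719 CPM lay above every RIS sample and within the range of the RIS+shHMGA1 samples. RIS replicate 2 held the lowest value of its group, and the other RIS samples started at 2513 CPM. Without these libraries the medians were 2155 CPM in growing and 4287 CPM in RIS samples. By single gene, the growing median was lower without replicate 4 in 37 of the 38 genes, and the ratio of the medians ran from 0.784 to 1.04, above 1 in NDUFV1. The RIS median was higher without replicate 2 in 37 of the 38 genes, with a ratio from 0.956 to 1.25, below 1 in NDUFV1.

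Libraries also differed in how short and long transcripts were represented, and the summed level moved with this difference. For each sample, the median log2 deviation of 842 other genes with transcripts under 1000 bases was set against that of 4977 other genes with transcripts over 4000 bases. This short-minus-long value was 0.29 to 1.24 in RIS+shHMGA1, −0.99 to 0.42 in RIS, −0.49 to 0.09 in shHMGA1 and −1.27 to 0.92 in growing samples. Growing replicate 4 had the highest growing value, 0.92, and RIS replicate 2 the lowest RIS value, −0.99. Most complex I transcripts are short, 26 of the 38 being under 1000 bases. How far the length dependence accounts for the levels of the complex I genes was not tested, but the tests were repeated with it removed.

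**Figure D1:**
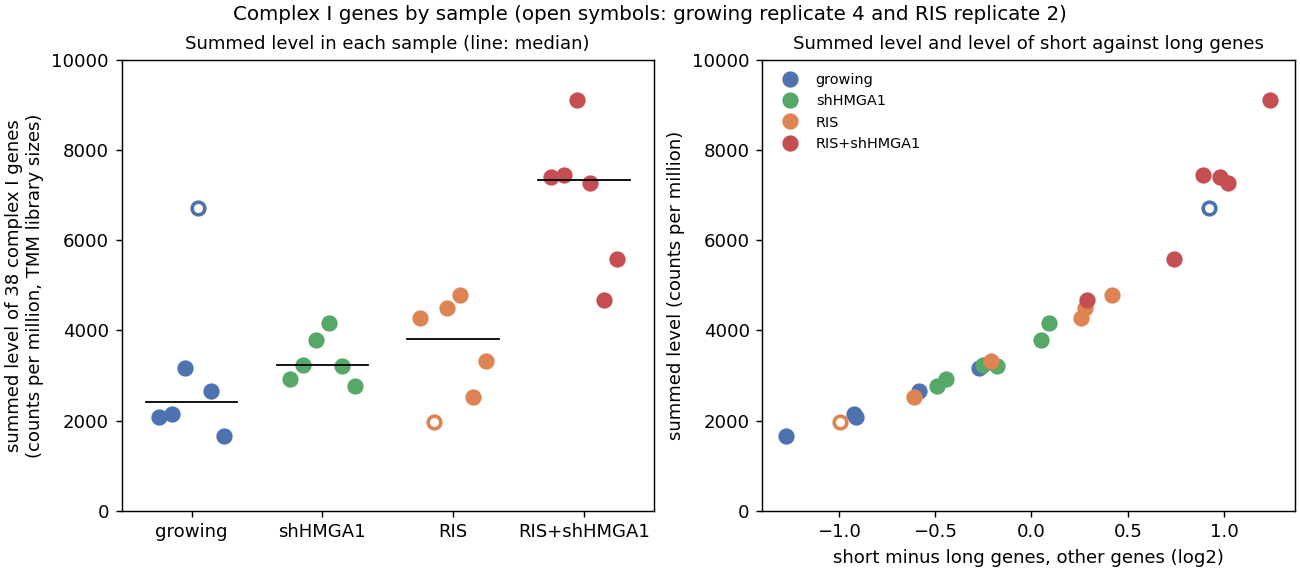
The left panel plots the summed level of the 38 complex I genes (CPM) in each sample by group, with the group median as a line. The right panel plots the same sum against the short-minus-long value of the other genes (log2), and open symbols mark growing replicate 4 and RIS replicate 2. The RIS+shHMGA1 samples sit between 4681 and 9125 CPM, and the sum tends to be higher where the short-minus-long value is higher.

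The first comparison asks how the complex I genes differ between cells with the hairpin that had 4OHT and those that had none. In RIS+shHMGA1 against shHMGA1 cells, 25 of the 38 genes were called higher and 0 lower, where 19.6% of all 13356 genes were called higher. The median log2 fold change was 0.83 over the members and −0.02 over all genes. For 37 of the 38 genes the estimate was above 0, and NDUFV1 was the exception. In 21 of the 38 genes every RIS+shHMGA1 sample lay above every shHMGA1 sample, as it did in 20.9% of all genes. At an adjusted p under 0.05 with no fold limit, 34 members were higher, against 31.2% of all genes. The count depended on the samples, including those of the other groups, which enter the estimate of the spread. Without growing replicate 4 and RIS replicate 2, 28 members were called, with NDUFA12, NDUFA9 and NDUFB7 added. In that fit 19 of 21 members with transcripts under 750 bases were called higher, against 60.5% of other genes of that length. The share over all genes is not given here. Without replicate 1 of each group 1 member, NDUFA8, was called, where 9.6% of all genes were called higher, and without replicate 3 it was NDUFA3, where the share was 8.74%. Without replicates 2, 5 and 6 the counts were 12, 15 and 11, against 15.3%, 15.8% and 15% of all genes, and without replicate 4 the count was 29, against 22.8%.

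Of the nuclear core subunits, 3 were called higher: NDUFV2, NDUFS3 and NDUFS8. The 3 subunits of the NADH-oxidising module did not move alike. NDUFV1 carries the flavin that takes the electrons from NADH. Its level was 53.1 to 74.7 CPM in growing (median 58.3), 52.8 to 64.7 in shHMGA1 (median 57.0), 49.8 to 67.4 in RIS (median 56.6) and 40.6 to 61.5 in RIS+shHMGA1 samples (median 48.2). The groups overlapped, and the log2 fold change in RIS+shHMGA1 against shHMGA1 was −0.21 ± 0.11 (adjusted p = 0.087), with a 95% confidence interval from −0.43 to 0.01. NDUFV2, an iron-sulphur protein next to NDUFV1, was at 86.1 to 151 CPM in shHMGA1 (median 111) and at 220 to 377 CPM in RIS+shHMGA1 samples (median 309). These groups did not overlap, and NDUFV2 rose by 1.40 ± 0.35 (log2, adjusted p = 0.0021). It was at 47.3 to 265 CPM in growing (median 70.7) and 51.2 to 187 CPM in RIS samples (median 150). Without growing replicate 4 and RIS replicate 2 the growing samples reached at most 89.5 CPM (median 61.7) and the RIS samples started at 96.1 CPM (median 164). NDUFS1, the largest core subunit, was at 119 to 141 CPM in shHMGA1 (median 125) and 123 to 176 CPM in RIS+shHMGA1 samples (median 167). Its groups overlapped, and the change of 0.32 ± 0.15 did not pass (adjusted p = 0.059). In growing samples NDUFS1 was at 88.5 to 170 CPM (median 115), and in RIS samples at 97.0 to 158 CPM (median 144).

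The core subunits described next belong to the quinone-reducing module. NDUFS3, which helps to join the modules, was at 64.4 to 105 CPM in shHMGA1 (median 79.5) and at 122 to 254 CPM in RIS+shHMGA1 samples (median 202). No RIS+shHMGA1 sample fell within the shHMGA1 range, and the gene rose by 1.22 ± 0.32 (adjusted p = 0.0030). NDUFS8, which holds iron-sulphur clusters on the way to the quinone, had medians of 77.2 and 137 CPM and rose by 0.76 ± 0.22 (adjusted p = 0.0061). Its highest shHMGA1 value, 102 CPM, lay above its lowest RIS+shHMGA1 value, 96.4 CPM. NDUFS7, an iron-sulphur protein near the site of ubiquinone reduction, was at 28.0 to 44.1 CPM in shHMGA1 (median 33.5) and 33.7 to 42.1 CPM in RIS+shHMGA1 samples (median 39.6), a change of 0.18 ± 0.13 (adjusted p = 0.22). Its groups overlapped. In growing and RIS samples the medians were 57.5 and 98.7 CPM for NDUFS3, 71.1 and 104 CPM for NDUFS8, and 34.4 and 31.6 CPM for NDUFS7. Without the 2 libraries those of NDUFS3 were 46.6 and 112 CPM.

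Of the 31 other members, which are accessory subunits apart from NDUFA4, 22 were called higher, with a median log2 fold change of 0.88 and a range from 0.22 to 2.07. The largest change of all members was that of NDUFB9, a small protein of the LYR family in the membrane arm (Entrez 4715, GRCh37 chromosome 8, 125551342 to 125592889, plus strand). NDUFB9 was at 54.9 to 621 CPM in growing (median 96.1), 115 to 211 CPM in shHMGA1 (median 138), 63.4 to 391 CPM in RIS (median 268) and 341 to 982 CPM in RIS+shHMGA1 samples (median 684). All RIS+shHMGA1 samples lay above all shHMGA1 samples, with a log2 fold change of 2.07 ± 0.51 (adjusted p = 0.0020). The highest growing value was that of replicate 4, and the other growing samples reached at most 128 CPM. Without the 2 libraries the medians of NDUFB9 were 79.5 CPM in growing and 335 CPM in RIS samples.

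NDUFB9 was followed by NDUFA2 and NDUFB5. NDUFA2, a thioredoxin-like subunit of the matrix arm, was at 44.4 to 74.1 CPM in shHMGA1 (median 55.4) and 94.0 to 252 CPM in RIS+shHMGA1 samples (median 179), and rose by 1.59 ± 0.41 (adjusted p = 0.0027). NDUFB5, a membrane-arm subunit, was at 80.5 to 147 CPM (median 90.9) and 174 to 375 CPM (median 308), and rose by 1.54 ± 0.42 (adjusted p = 0.0035). Neither gene overlapped between these groups. In growing and RIS samples, NDUFA2 had medians of 31.3 and 66.2 CPM and NDUFB5 of 59.5 and 133 CPM, and without the 2 libraries these were 27.8 and 78.5 CPM for NDUFA2 and 49.5 and 153 CPM for NDUFB5. NDUFAB1 is the mitochondrial acyl carrier protein, which also serves fatty acid synthesis outside complex I. It rose by 1.39 ± 0.36 (adjusted p = 0.0027), from 88.2 to 156 CPM in shHMGA1 (median 108) to 195 to 404 CPM in RIS+shHMGA1 samples (median 319), with growing and RIS medians of 80.8 and 150 CPM.

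The NDUFA family had 8 of 13 genes called higher. NDUFA11, a membrane-embedded subunit, had a median of 125 CPM in growing samples, 183 CPM with the hairpin alone, 225 CPM in RIS and 543 CPM in RIS+shHMGA1, and rose by 1.39 ± 0.39. NDUFA4 had medians of 152, 223, 221 and 611 CPM in the same order, and rose by 1.26 ± 0.38. For NDUFA7 they were 24.2, 34.2, 41.6 and 87.7 CPM, with a rise of 1.22 ± 0.33. These 3 genes had their highest median in RIS+shHMGA1 and their lowest in growing samples. NDUFA3 had medians of 28.4, 39.1, 48.4 and 91.8 CPM and rose by 1.20 ± 0.28. NDUFA8, which lies on the side of the intermembrane space, had medians of 44.7, 63.5, 84.1 and 148 CPM and rose by 1.14 ± 0.27. NDUFA1, a small membrane subunit needed for assembly, had medians of 62.6, 86.8, 98.4 and 183 CPM and rose by 0.97 ± 0.28. NDUFA13, also known as GRIM-19, completed the 8 with a rise of 0.91 ± 0.28 and medians of 116, 163, 186 and 332 CPM.

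The other 5 NDUFA genes were not called in this comparison. NDUFA9, a nucleotide-binding subunit of the matrix arm, had median levels of 82.0 CPM (growing), 112 CPM (shHMGA1), 111 CPM (RIS) and 214 CPM (RIS+shHMGA1), and its change of 0.79 ± 0.26 had an adjusted p of 0.013. NDUFA12, a relative of the assembly factor NDUFAF2, had medians of 41.2, 56.8, 45.8 and 93.4 CPM (0.63 ± 0.25, adjusted p = 0.034). NDUFA6, a partner of the acyl carrier protein, had medians of 77.6, 111, 100 and 168 CPM (0.56 ± 0.22, adjusted p = 0.031). These 3 genes were highest in RIS+shHMGA1 samples and overlapped between RIS+shHMGA1 and shHMGA1. NDUFA5 had medians of 23.6, 24.3, 24.7 and 40.7 CPM (0.52 ± 0.21, adjusted p = 0.037), and NDUFA10 of 54.0, 54.7, 56.9 and 63.9 CPM (0.22 ± 0.09, adjusted p = 0.042). NDUFA10, which resembles nucleoside kinases, had the narrowest range among the NDUFA genes, from 43.8 to 69.8 CPM over all 24 samples.

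The NDUFB family, which belongs to the membrane arm, had 9 of 11 genes called higher. Besides NDUFB9 and NDUFB5, NDUFB6 rose by 1.27 ± 0.34, with medians of 41.7 CPM (growing), 62.6 CPM (shHMGA1), 65.9 CPM (RIS) and 165 CPM (RIS+shHMGA1). NDUFB3 rose by 1.21 ± 0.36, with medians of 38.8, 61.5, 66.0 and 160 CPM. NDUFB1 rose by 1.19 ± 0.34, with medians of 26.6, 43.9, 47.5 and 107 CPM. The remaining called genes of the family had smaller estimates. NDUFB2 rose by 0.83 ± 0.26 (63.9, 87.9, 91.6 and 160 CPM) and NDUFB10 by 0.76 ± 0.22 (70.4, 82.3, 107 and 150 CPM). NDUFB8 rose by 0.71 ± 0.21 (73.4, 97.4, 100 and 165 CPM) and NDUFB4 by 0.70 ± 0.20 (57.1, 70.2, 87.1 and 118 CPM). An antisense gene, NDUFB2-AS1, was counted separately, and since the strand setting of the counting is not given in the sources used here, its reads and those of NDUFB2 may not be fully separated. NDUFB7 (66.2, 87.2, 81.2 and 132 CPM) and NDUFB11 (52.4, 63.2, 66.2 and 93.9 CPM) were not called, with changes of 0.60 ± 0.23 (adjusted p = 0.026) and 0.49 ± 0.18 (adjusted p = 0.021).

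Both NDUFC genes, which code for small subunits of the membrane arm, were called higher. NDUFC1 rose by 0.88 ± 0.26, with medians of 31.0, 41.3, 41.1 and 81.5 CPM in growing, shHMGA1, RIS and RIS+shHMGA1 samples, and NDUFC2 by 0.74 ± 0.19, with 79.7, 98.8, 98.8 and 167 CPM. Among the accessory subunits with NDUFS and NDUFV names, 2 of 4 were called. NDUFS5 rose by 1.14 ± 0.30 (139, 183, 251 and 440 CPM) and NDUFS4, a subunit of the matrix arm known from inherited Leigh syndrome, by 0.83 ± 0.25 (50.0, 65.2, 70.7 and 126 CPM). NDUFS6, a zinc-binding subunit, and NDUFV3 passed the adjusted p but not the fold limit. They changed by 0.44 ± 0.12 (43.5, 46.3, 48.3 and 60.7 CPM) and 0.39 ± 0.09 (36.8, 38.2, 42.8 and 49.9 CPM), with adjusted p of 0.0038 and 0.0011.

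**Figure D2:**
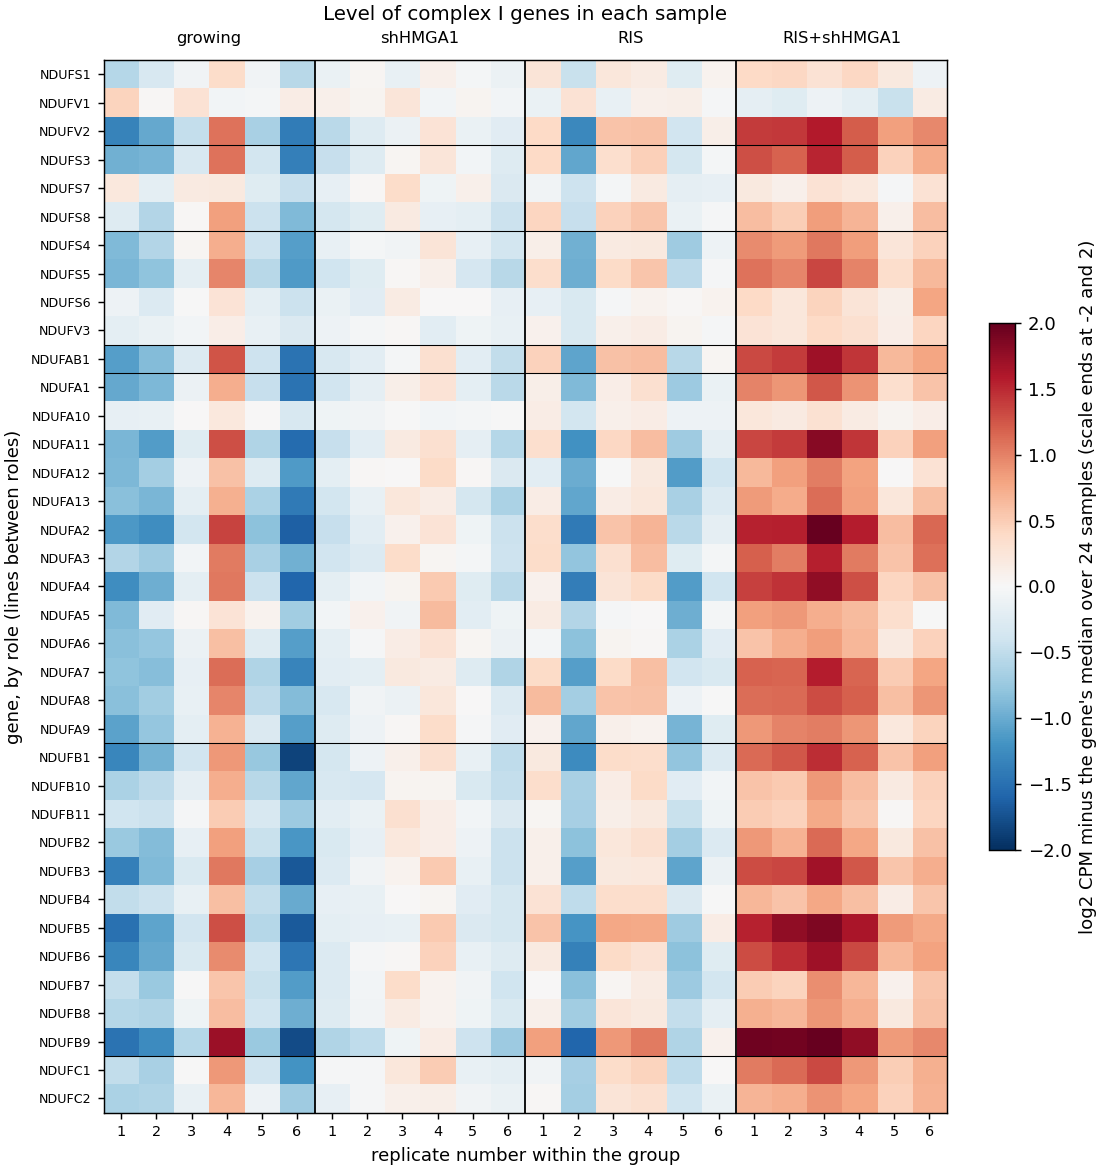
Level of 37 of the 38 complex I genes (rows, by role) in each of the 24 samples (columns, by group and replicate), as log2 CPM minus the median of the gene over all samples. Most rows are above their median in RIS+shHMGA1 samples and in growing replicate 4, whereas NDUFV1, NDUFS7 and NDUFA10 vary little across the samples.

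Transcript length went together with the size of the change in the other genes. Across 12662 other genes with a known transcript length, the log2 fold change in RIS+shHMGA1 against shHMGA1 had a Pearson's r of −0.28 and a Spearman's rho of −0.33 with the logarithm of the length, given as a description since the genes share their libraries. Among other genes with transcripts under 750 bases, 52.1% were called higher, with a median log2 fold change of 0.91. In the same length class, 17 of 21 members were called and their median was 0.88. For transcripts of 750 to 1000 bases the values were 44.6% and 0.69 for other genes, and 4 of 5 and 1.20 for members. Between 1000 and 2000 bases, 1 of 4 members was called, and the medians were 0.37 for members and 0.31 for other genes, of which 28.9% were called higher. For transcripts over 4000 bases, 11.3% of other genes were called higher and their median was −0.28, and the 6 members had a median of 0.45, with NDUFB5 the called one. The 2 members between 2000 and 4000 bases, NDUFA4 and NDUFC2, were both called. Of the other genes of that length 18.2% were called higher, and their median was −0.03. The difference between members and other genes within a length class was not tested.

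The test was repeated after the smooth dependence on transcript length had been removed in each sample, for 12700 genes with a length. In that fit, 11 members were called higher and 0 lower in RIS+shHMGA1 against shHMGA1, where 18.4% of all genes were called higher, and 9 of the 11 were among the 25. The 11 were NDUFA2, NDUFA3, NDUFA4, NDUFA9, NDUFAB1, NDUFB5, NDUFB6, NDUFB9, NDUFC2, NDUFV2 and NDUFV3. The median over the members was 0.24. The largest values were those of NDUFB5 (1.70 ± 0.46), NDUFB9 (1.26 ± 0.29), NDUFA9 (1.14 ± 0.36) and NDUFA4 (1.11 ± 0.33). Over the 38 members the estimates now rose with transcript length (Pearson's r 0.53, Spearman's rho 0.51), against −0.31 and −0.25 in the first fit. A single annotated length was used per gene, 4199 bases for NDUFB5 and 8356 for NDUFA9. The order of the members in this fit thus depends on these lengths. Several genes called in the first fit had values around 0, among them NDUFA1 (−0.01 ± 0.08), NDUFA13 (0.00 ± 0.08), NDUFB10 (−0.02 ± 0.07), NDUFB8 (−0.07 ± 0.06) and NDUFS8 (0.02 ± 0.08). NDUFV1 and NDUFS7 were at −0.51 ± 0.15 and −0.53 ± 0.15, with adjusted p of 0.0056 and 0.0041 and sizes under the fold limit.

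The comparison of RIS+shHMGA1 with growing cells spans both the hairpin and 4OHT, and it shares the RIS+shHMGA1 samples with the first. It gave 30 of the 38 genes higher and 0 lower, where 22% of all genes were called higher. The members had a median log2 fold change of 1.05. All 11 NDUFB genes, 12 of 13 NDUFA genes, both NDUFC genes, NDUFAB1, NDUFS4 and NDUFS5 were called, and of the core subunits NDUFV2 (1.60 ± 0.35) and NDUFS3 (1.34 ± 0.32). NDUFB9 changed by 1.83 ± 0.51, NDUFA2 by 1.72 ± 0.41 and NDUFB5 by 1.72 ± 0.42. NDUFV1 was at −0.30 ± 0.11, which had an adjusted p of 0.017. With the length dependence removed, 15 members were called higher, against 19.3% of all genes, and 3 lower, against 21.2%. The 3 were NDUFS7 (−0.74 ± 0.15), NDUFV1 (−0.72 ± 0.15) and NDUFS6 (−0.68 ± 0.19), and the median over the members was 0.43. Without replicate 1 of each group 6 members were called higher (6.68% of all genes), and without replicate 3 there were 15 (9.99%). Without growing replicate 4 and RIS replicate 2, 31 members were called higher (28.3% of all genes), and the median was 1.39. In 33 members every RIS+shHMGA1 sample then lay above every growing sample, as it did in 26.7% of all genes, and NDUFA5, NDUFS1, NDUFS7 and NDUFV1 were among the exceptions. With all samples the groups overlapped in 37 members, and NDUFV3 was the one without overlap.

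With the control vector, no change from growing to RIS cells passed the call in the full set of samples. In RIS against growing cells, 0 of the 38 genes were called by edgeR, as were 0.0% of all genes. At an unadjusted p under 0.05 there were 1 member and 4407 genes, and DESeq2 called 0 members and 272 genes higher. The members ranged from −0.10 (NDUFV1) to 0.49 (NDUFB5), with a median of 0.20. The largest estimates were those of NDUFB5 (0.49 ± 0.41), NDUFV2 (0.47 ± 0.35), NDUFB9 (0.46 ± 0.50) and NDUFA8 (0.42 ± 0.26). The lowest after NDUFV1 were NDUFS7 (−0.08 ± 0.13), NDUFA12 (−0.05 ± 0.25) and NDUFA5 (−0.01 ± 0.21).

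This comparison rested on the 2 libraries that stood apart. Leaving out replicate 4 of each group gave 2 members called higher, NDUFA8 and NDUFV2, against 8.8% of all genes. Without growing replicate 4 and RIS replicate 2, 20 members were called higher and 0 lower, where 19.2% of all genes were called higher. At an adjusted p under 0.05 with no fold limit, 31 members were higher, against 30.7% of all genes. NDUFB9 was then at 1.66 ± 0.30 (adjusted p = 5.3e-05), NDUFB5 at 1.35 ± 0.28 (0.00019), NDUFV2 at 1.23 ± 0.20 (1e-05) and NDUFA2 at 1.22 ± 0.25 (0.0002). NDUFS3 (0.93 ± 0.21) and NDUFS8 (0.67 ± 0.16) were also called, whereas NDUFS1 (0.40 ± 0.12) stayed under the fold limit. NDUFV1 (−0.19 ± 0.11, adjusted p = 0.12) and NDUFS7 (0.02 ± 0.13, adjusted p = 0.90) did not pass. Even then the groups overlapped in 35 of the 38 genes. The 3 genes in which every RIS sample lay above every growing sample were NDUFA8, NDUFV2 and NDUFV3, and this held for 15.9% of all genes.

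RIS+shHMGA1 against RIS cells compares the hairpin with the vector under 4OHT. With all samples, 0 of the 38 genes were called higher or lower, where 1.77% of all genes were called higher. At an adjusted p under 0.05 with no fold limit, 30 members were higher, against 16.9% of all genes, and at an unadjusted p under 0.05 there were 33 members and 6647 genes. DESeq2 with the same thresholds called 24 members higher, against 7.85% of all genes. The edgeR fit on the samples of these groups alone called 3 (NDUFA6, NDUFB3 and NDUFB6), against 1.82%. With the replicate number as a block 28 members were called, and the share of all genes in that fit is not given here. The median log2 fold change of 0.89 was close to that in RIS+shHMGA1 against shHMGA1. The largest estimates were those of NDUFA4 (1.44 ± 0.38, adjusted p = 0.014), NDUFA2 (1.40 ± 0.41, 0.019), NDUFB6 (1.39 ± 0.34, 0.011) and NDUFB3 (1.38 ± 0.36, 0.013). NDUFV1 (−0.20 ± 0.11), NDUFA10 (0.19 ± 0.09) and NDUFS1 (0.25 ± 0.15) were at the other end. In 13 members every RIS+shHMGA1 sample lay above every RIS sample, as it did in 8.0% of all genes. Without growing replicate 4 and RIS replicate 2, 27 members were called higher, against 10% of all genes, while the median estimate was 0.77. With the length dependence removed from all samples, 2 members were called higher, NDUFB6 (1.05 ± 0.23) and NDUFC2 (0.67 ± 0.15), against 1.68% of all genes. Without replicate 4 of each group 28 members were called higher, against 11.2% of all genes.

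**Figure D3:**
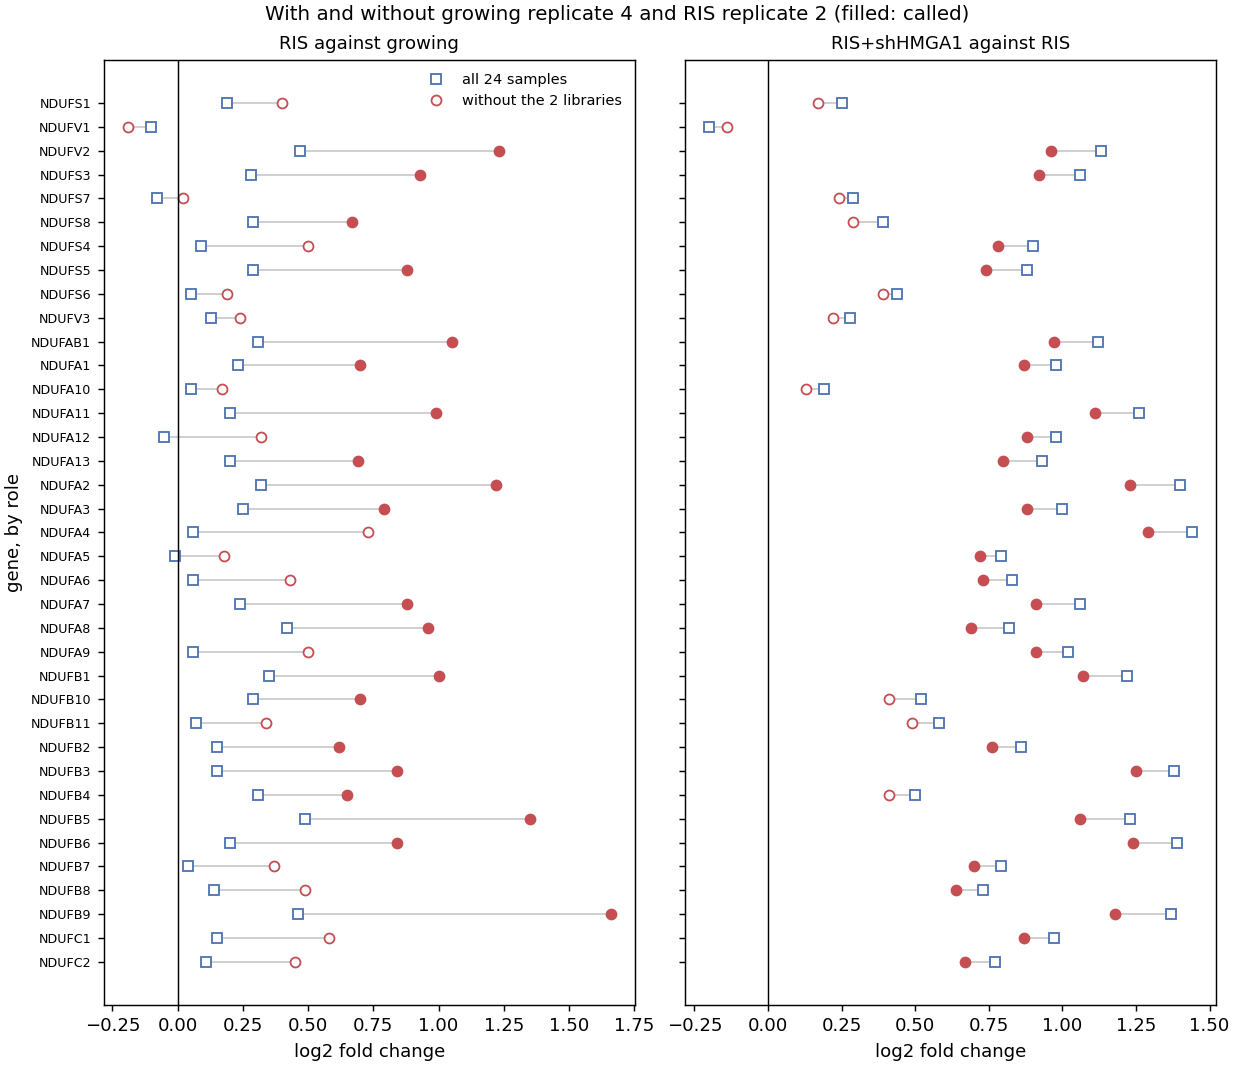
Log2 fold change of 37 of the 38 complex I genes in RIS against growing cells (left) and RIS+shHMGA1 against RIS cells (right). Squares are the fit on all 24 samples and circles the fit without growing replicate 4 and RIS replicate 2, and filled symbols are called genes: none of the squares, 20 circles on the left and 27 on the right.

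The comparison of shHMGA1 with growing cells asks about the hairpin in the absence of 4OHT. In shHMGA1 against growing cells, 0 members were called by edgeR, against 0.27% of all genes in either direction, and 0 members had an unadjusted p under 0.05, against 1759 genes. DESeq2 also called 0 members. The median log2 fold change was 0.14, with members from −0.23 (NDUFB9) to 0.38 (NDUFB1). Without growing replicate 4 and RIS replicate 2 the median was 0.52 and 0 members were called, against 1.21% of all genes called higher. NDUFB1 and NDUFB3 were then at 0.88 ± 0.23 and 0.88 ± 0.24, with adjusted p of 0.014 and 0.020.

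Whether 4OHT moved the genes more in cells with the hairpin than in cells with the vector was tested as an interaction. It called 0 members, against 0.0% of all genes, and the smallest adjusted p of a member was 0.43. At an unadjusted p under 0.05 there were 13 members and 1371 genes, and DESeq2 called 0 members. The estimates were above 0 for 36 of the 38 genes, with a median of 0.71, and the largest were those of NDUFB9 (1.61 ± 0.70) and NDUFA2 (1.27 ± 0.57). Without growing replicate 4 and RIS replicate 2 the interaction called 0 members and the median was 0.24, and NDUFB9 was at 0.41 ± 0.40 and NDUFA2 at 0.37 ± 0.33.

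The other genes of the respiratory chain were examined as fixed lists in RIS+shHMGA1 against shHMGA1 cells, where 19.6% of all genes were called higher, 19.5% were called lower and the median of all genes was −0.02. Of complex III, 6 of 9 genes were called higher and 0 lower (median 0.95), with UQCRH at 1.74 ± 0.39 and the Rieske protein gene UQCRFS1 at 0.52 ± 0.13, under the fold limit. Of complex IV, cytochrome c oxidase, 9 of 10 were called higher (median 0.97), with COX7B at 1.77 ± 0.47 and COX8A at 0.40 ± 0.18, which did not pass. Of complex V, the ATP synthase, 11 of 15 were called higher (median 1.13), with ATP5MF at 1.53 ± 0.39, and the catalytic subunits ATP5F1A and ATP5F1B at 0.38 ± 0.16 and 0.27 ± 0.11 were not called. Complex II had 2 of 4 called higher, SDHB (1.13 ± 0.29) and SDHC (1.28 ± 0.36), and the flavoprotein SDHA was at −0.31 ± 0.12. UQCRC1, a large subunit of complex III, was at −0.07 ± 0.09. All of these lists share the libraries and the length dependence of the complex I genes.

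The assembly factors of complex I, which build the complex but are not part of it, had 9 of 16 genes called higher and 0 lower (median 0.90). TMEM126B (1.98 ± 0.48), NDUFAF5 (1.31 ± 0.33), TIMMDC1 (1.24 ± 0.33) and NDUFAF2 (1.17 ± 0.26) had the largest changes. NUBPL, which delivers iron-sulphur clusters, and ACAD9 were at −0.39 ± 0.11 and −0.40 ± 0.11, under the fold limit with adjusted p of 0.0047 and 0.0034. Among 12 genes of mitochondrial biogenesis, 5 were called higher and 1 lower. PPARGC1B, a coactivator, rose by 1.71 ± 0.46 at a low level (median 0.277 CPM in shHMGA1 and 0.863 CPM in RIS+shHMGA1 samples). The mitochondrial transcription factors TFB2M and TFAM rose by 1.76 ± 0.37 and 1.04 ± 0.26, and the nuclear factors GABPA and ESRRA by 0.90 ± 0.19 and 0.68 ± 0.15. NRF1, a nuclear factor known to act on respiratory chain genes, fell by 0.59 on the log2 scale (SE 0.16, adjusted p = 0.0033). The list of mitochondrial content gave 2 of 8 higher, near the 19.6% of all genes (median 0.30), TOMM20 at 1.33 ± 0.27 and SOD2 at 1.92 ± 0.34, while citrate synthase (CS) was at −0.44 ± 0.10. C15orf48, a paralog of NDUFA4, rose by 4.46 ± 0.96, and the second paralog, NDUFA4L2, was at or below 1.16 CPM in all samples and was not tested.

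Other lists moved in the same libraries. The proliferation genes MKI67, TOP2A and CCNB1 were all called lower in RIS+shHMGA1 against shHMGA1 cells (median −3.53), and IL1A, IL1B, IL6 and CXCL8 were all called higher (median 3.44). Of the 8 fibroblast markers, 7 were called lower, with COL3A1 at −4.44 ± 0.91, while VIM was at −0.33 ± 0.12. Their part in the changes of the complex I genes was not tested.

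Compared per length, the levels of the complex I genes spanned a wide range. The median CPM per kilobase of transcript in growing samples was highest for NDUFS5 (282), NDUFA13 (222) and NDUFA11 (217), and lowest for NDUFA5 (4.30) and NDUFV3 (6.44). In RIS+shHMGA1 samples it was highest for NDUFB9 (990), NDUFA11 (945) and NDUFS5 (890), and lowest for NDUFA5 (7.40) and NDUFV3 (8.71). Other membrane-arm genes such as NDUFB10 (223) and NDUFB4 (181) were lower than NDUFB9 there. The core subunits NDUFV2 (360), NDUFS3 (226) and NDUFS8 (186) lay above NDUFV1 (30.9), NDUFS7 (52.2) and NDUFS1 (14.3) in these samples, and in growing samples NDUFV2 was at 82.5 and NDUFV1 at 37.4. The length is that of a single transcript per gene, so that genes with a long annotated transcript, such as NDUFS1 and NDUFA9, may be understated.

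The promoters of the members were read from RefSeq windows of 300 bases (250 before and 50 after the start of the gene, build GRCh38.p14), which were found for 33 of the 38 genes; where several were listed the first was taken. They were searched on both strands for 5 words known from respiratory chain promoters. The word CGCATGCGC (NRF1) was in the windows of NDUFA8, NDUFB4, NDUFS6 and NDUFS7, or 4 of 33, and in 2.1% of 27305 windows of all genes. AAGATGGCG (YY1) was in 5 of 33, against 1.85%, and CCGGAAGT (GABPA and other ETS factors) in 2 of 33, against 4.44%. GGGGCGGGG (SP1) was in 6 of 33, against 16.0%, and CCAAT (NFY) in 8 of 33, against 35.7%. Called and uncalled genes both held these words: of 21 genes called in RIS+shHMGA1 against shHMGA1 that have a window, 2 held the NRF1 word and 3 the SP1 word. A match describes the letters and not a bound site.

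The 250 bases before the start are shown for the 3 genes with the largest and the 3 with the smallest log2 fold change in that comparison among those with a window, so that they can be set side by side. Capitals mark the words, read 5′ to 3′ along the strand of the gene. NDUFA2 lies on chromosome 5 (chr5:140647631-140647880, minus strand), NDUFV2 on chromosome 18 (chr18:9102449-9102698, plus strand) and NDUFA11 on chromosome 19 (chr19:5903791-5904040, minus strand).
NDUFA2: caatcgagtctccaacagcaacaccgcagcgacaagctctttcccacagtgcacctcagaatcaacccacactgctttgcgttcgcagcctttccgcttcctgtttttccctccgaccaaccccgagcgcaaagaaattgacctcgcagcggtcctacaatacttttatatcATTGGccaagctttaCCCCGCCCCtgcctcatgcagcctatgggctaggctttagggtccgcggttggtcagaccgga
NDUFV2: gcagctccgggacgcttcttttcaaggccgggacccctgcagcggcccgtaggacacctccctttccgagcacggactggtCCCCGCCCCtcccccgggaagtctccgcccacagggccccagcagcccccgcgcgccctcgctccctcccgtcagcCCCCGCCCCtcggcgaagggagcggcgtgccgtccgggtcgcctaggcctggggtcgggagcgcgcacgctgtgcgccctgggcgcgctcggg
NDUFA11: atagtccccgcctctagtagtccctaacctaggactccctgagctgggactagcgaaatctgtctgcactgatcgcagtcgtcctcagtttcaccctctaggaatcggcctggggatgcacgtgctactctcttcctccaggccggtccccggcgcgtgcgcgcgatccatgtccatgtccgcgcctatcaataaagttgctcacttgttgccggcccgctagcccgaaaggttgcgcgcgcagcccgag
The 3 genes with the smallest change are NDUFA10 (chr2:240025343-240025592, minus strand), NDUFS7 (chr19:1383657-1383906, plus strand) and NDUFV1 (chr11:67606686-67606935, plus strand).
NDUFA10: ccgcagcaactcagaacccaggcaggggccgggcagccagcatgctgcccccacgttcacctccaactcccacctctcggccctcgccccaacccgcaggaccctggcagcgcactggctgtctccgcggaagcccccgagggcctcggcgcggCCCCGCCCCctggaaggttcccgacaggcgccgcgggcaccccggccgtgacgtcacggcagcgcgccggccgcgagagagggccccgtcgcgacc
NDUFS7: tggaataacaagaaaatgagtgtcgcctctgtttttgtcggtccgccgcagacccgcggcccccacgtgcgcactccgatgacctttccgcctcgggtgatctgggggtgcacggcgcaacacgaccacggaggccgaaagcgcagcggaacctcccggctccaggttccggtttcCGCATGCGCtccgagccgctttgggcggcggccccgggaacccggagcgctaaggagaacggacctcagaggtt
NDUFV1: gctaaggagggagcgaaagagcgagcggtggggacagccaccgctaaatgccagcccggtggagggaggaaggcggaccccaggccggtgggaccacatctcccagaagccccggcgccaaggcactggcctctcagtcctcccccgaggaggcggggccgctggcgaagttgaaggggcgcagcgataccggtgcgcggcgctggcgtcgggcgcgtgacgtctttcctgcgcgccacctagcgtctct
The NFY word (read as ATTGG on this strand) stood in NDUFA2. The SP1 word stood in NDUFA2, in NDUFV2 at 2 places and in NDUFA10, and the NRF1 word in NDUFS7. NDUFA11 and NDUFV1, at opposite ends of the range of change, held none of the 5 words in these stretches.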

How the data were processed

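RNA-seq libraries were prepared from 24 samples with a stranded poly(A) kit. Per the methods of the study, reads were aligned to the hg19 genome by the authors (STAR 2.5.0b), low-quality reads and adapters were removed with Cutadapt 1.10.0, reads were counted on genes with Rsubread, and the authors deposited raw counts for 25702 Entrez identifiers per sample. The annotation and strand setting of the counting are not given in the sources used here. Total counts ranged from 8698070 to 23103424 (median 10604084), so that the spread between replicates rather than counting error sets the precision. P-values measure the spread between these samples of 1 cell line.

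Symbols were matched by Entrez identifier to a RefSeq table (23696 of 25702). Coordinates and transcript lengths came from the GENCODE annotation lifted to GRCh37 (canonical transcript; the longest basic transcript for NDUFB6), and 95.1% of tested genes had a length. Counts were tested with edgeR 4.0.16 in R 4.3.3 (filterByExpr by group, TMM, quasi-likelihood fit of group means over all 24 samples, no block), with Benjamini-Hochberg adjustment over 13356 genes and a gene was called where the FDR was under 0.01 and the size of the log2 fold change exceeded 0.58. CPM use TMM library sizes, and log2 CPM a prior count of 2. Alternatives were DESeq2 1.42.0, RLE factors, other low-count filters, the replicate number as a block, the samples of the contrast only, FDR under 0.05, fits without growing replicate 4 and RIS replicate 2, and fits without each replicate number. Added after seeing the data were fits with each sample's lowess trend on transcript length (span 0.3) as an offset, and the block without the 2 libraries. The scripts were tested on simulated data. The members, gene lists and departing libraries were chosen with earlier results of these data known. Values in every group are given for the core subunits, for each called member and for the 4 largest and smallest changes per comparison, and the other members are named with their medians. The values of 1 member are not reported here, and it is included in the counts, sums and medians over the 38 genes.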

Additional observations from a re-analysis of the deposited data

Results flagged for a closer look

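In 39 measures (the summed level and each of the 38 genes, log2 scale) and 4 groups, 156 gaps between the highest or lowest sample and its nearest neighbour were compared with the range of the group. Chance gives a gap over Dixon's 95% limit in about 1 of 20 groups, or 7.8 of 156, and 5 were found. The measures share their libraries, and the sum is made of the genes, so the gaps are not independent. The count of 5 therefore cannot show whether a library departs from its group. Growing replicate 4 was the highest sample of its group for NDUFB9, with a gap of 0.650 of the range, and for NDUFV2, with 0.631. The shHMGA1 replicate 4 was the highest of its group for NDUFB5 (0.767) and NDUFA5 (0.638). RIS+shHMGA1 replicate 5 was the lowest of its group for NDUFB4 (0.674).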

How the results depend on the processing

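With the limits used for the calls, 0 members were called lower in RIS+shHMGA1 against shHMGA1 cells under any alternative. In that comparison the counts of called members were 26 with DESeq2, 25 with RLE factors, 23 without a filter and 27 with the samples of the contrast only, against 25; leaving out replicate numbers gave 1 to 29, and removing the length trend 11, or 13 when growing replicate 4 and RIS replicate 2 were also left out. For RIS+shHMGA1 against growing cells, leaving out replicate numbers gave 6 to 33 members against 30, and removing the length trend gave 18 (15 higher and 3 lower, NDUFS6, NDUFS7 and NDUFV1). For RIS against growing cells, against 0, leaving out replicate numbers gave 0 to 2, leaving out the 2 libraries 20, and removing the length trend as well 6. For RIS+shHMGA1 against RIS cells, against 0, DESeq2 gave 24, the samples of the contrast only 3, an FDR under 0.05 with no fold limit 30, the fit without the 2 libraries 27, leaving out replicate numbers 0 to 28, and removing the length trend 2, or 7 without the 2 libraries. The causes of these differences were not tested. The share of all genes called also moves with the setting, for RIS+shHMGA1 against RIS cells from 1.77% to 7.85% with DESeq2. The counts listed here are not set against that share, so they describe the dependence on the setting only. With CPM on total counts in place of TMM library sizes, the median summed level of RIS+shHMGA1 samples was 5766 CPM against 7341.

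With the length trend removed, these log2 fold changes of RIS+shHMGA1 against shHMGA1 cells turned from above to below 0, with the same values with and without the 2 libraries: NDUFA1 −0.01, NDUFA12 −0.26, NDUFB10 −0.02, NDUFB11 −0.36, NDUFB2 −0.13, NDUFB4 −0.10, NDUFB7 −0.30, NDUFB8 −0.07, NDUFS6 −0.45 and NDUFS7 −0.53. Of RIS against growing cells, estimates near 0 turned positive. Leaving out replicate numbers gave −0.18 to 0.01 for NDUFV1, −0.14 to −0.03 for NDUFS7, −0.16 to 0.10 for NDUFA12 and −0.19 to 0.17 for NDUFA5. NDUFS7 was at 0.02 without the 2 libraries and 0.01 with the replicate block as well, and NDUFA12 at 0.32 and 0.24. NDUFA5 was at 0.00 with DESeq2, RLE factors and the replicate block, at 0.01 with the samples of the contrast only, at 0.18 without the 2 libraries and 0.14 with the block as well, and at 0.06 and 0.36 with the length trend removed (with and without the 2 libraries).

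The replicate numbers of the labels were checked for pairing. Deviations from the group means correlated between same-numbered samples of different groups with a mean r of 0.175 over 36 pairs and a lowest r of −0.594, against a mean of −0.0496 over 180 pairs with different numbers. Not every pair correlated positively, and the numbers were not taken to pair the samples in the main fit. Negative values in some pairs cannot show that the numbers are unrelated to the samples. The pairs include growing replicate 4 and RIS replicate 2, and whether the numbers pair the samples was not tested. With the replicate block 28 members were called in RIS+shHMGA1 against RIS cells (against 0), 28 in RIS+shHMGA1 against shHMGA1, 31 in RIS+shHMGA1 against growing and 0 in RIS against growing cells. The block without the 2 libraries gave 27, 28, 31 and 19 in the same comparisons, and 5 (NDUFA2, NDUFA6, NDUFB1, NDUFB3 and NDUFV2) in shHMGA1 against growing cells. The shares of all genes called in these fits are not given here. The counts therefore describe the dependence on the setting and are not a result about the members.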
